A study of Mus musculus with 6 samples.

Results

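Transcripts of the DNA damage checkpoint kinases ATM, ATR and DNA-PK were measured in whole mouse testes after germ cell deletion of Eif5 and in controls. Those of the effector kinases, the clamp and the activators that work with them were measured too. The sample titles give day 10 for both groups and do not say from which event the days are counted. The members were 10 genes taken by symbol from the deposited table of 22219 genes: Atm, Atr, Prkdc, Atrip, Topbp1, Rad9a, Rad1, Hus1, Chek1 and Chek2. All 10 were found, and 9 passed the filter on low counts, which Atrip did not pass. The cKO group held 3 libraries from a germ cell conditional knockout (cKO), in which mice with floxed Eif5 alleles were crossed with a Stra8-Cre line, and it was set against 3 control libraries. The labels name no genotype for the control mice, so an effect of Cre or of the floxed alleles alone cannot be told apart from that of losing Eif5. The Stra8 promoter drives Cre in germ cells only from the stage at which it is active, and somatic cells keep Eif5. RNA came from whole organs, so fewer germ cells and less RNA per germ cell cannot be told apart in any result given here.

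ATM, ATR and DNA-PK are large protein kinases of the PI3K-like family that start the response to damaged DNA. ATM is switched on by double-strand breaks, DNA-PK, whose catalytic subunit is encoded by Prkdc, by free DNA ends during end joining, and ATR, held at single-stranded DNA by its partner ATRIP, by stalled replication forks. ATR needs an activator, chiefly TOPBP1, which is brought in by the RAD9-RAD1-HUS1 clamp, and the apical kinases then pass the signal to the effector kinases CHK1 and CHK2. In the male germ line ATM also limits programmed meiotic breaks, and ATR with TOPBP1 and the clamp monitors chromosome synapsis.

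The promoter sequences of members that fell and of 1 clamp gene that did not are shown side by side, because their letters can be compared. RefSeq (GRCm38.p6) windows of 300 bases, from 250 bases before to 50 after the transcript start, were matched by symbol for 8 of the 10 members. Prkdc and Rad9a were not matched. The windows lie at chr9:53536622-53536921 (minus strand) for Atm, chr9:95857347-95857646 (plus strand) for Atr, chr9:36726609-36726908 (minus strand) for Chek1, chr9:103305077-103305376 (plus strand) for Topbp1 and chr11:9011142-9011441 (minus strand) for Hus1. They read 5′ to 3′ on the gene's strand, and capitals mark matches to E2F-type letters (TTCCCGC or TTCGCGC or TTGCCGC or TTGGCGC, on either strand), the kind of site bound by the factors that drive genes of DNA replication.
Atm: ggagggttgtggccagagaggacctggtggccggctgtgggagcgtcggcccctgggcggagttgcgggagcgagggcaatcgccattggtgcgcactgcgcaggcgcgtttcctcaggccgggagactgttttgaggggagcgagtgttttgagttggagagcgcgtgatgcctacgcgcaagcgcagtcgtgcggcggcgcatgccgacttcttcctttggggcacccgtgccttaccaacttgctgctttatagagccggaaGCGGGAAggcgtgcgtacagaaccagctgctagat
Atr: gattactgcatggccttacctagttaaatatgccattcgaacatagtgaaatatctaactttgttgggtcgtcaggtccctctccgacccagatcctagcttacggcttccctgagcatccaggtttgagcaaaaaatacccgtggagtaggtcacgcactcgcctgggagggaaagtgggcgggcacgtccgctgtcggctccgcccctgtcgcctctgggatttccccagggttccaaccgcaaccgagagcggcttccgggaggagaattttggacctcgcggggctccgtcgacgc
Chek1: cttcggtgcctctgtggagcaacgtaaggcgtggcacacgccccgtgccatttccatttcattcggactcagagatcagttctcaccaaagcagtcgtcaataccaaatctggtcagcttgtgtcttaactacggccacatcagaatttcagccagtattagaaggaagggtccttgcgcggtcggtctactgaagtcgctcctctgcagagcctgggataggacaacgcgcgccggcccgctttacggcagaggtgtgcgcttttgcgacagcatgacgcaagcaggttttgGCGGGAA
Topbp1: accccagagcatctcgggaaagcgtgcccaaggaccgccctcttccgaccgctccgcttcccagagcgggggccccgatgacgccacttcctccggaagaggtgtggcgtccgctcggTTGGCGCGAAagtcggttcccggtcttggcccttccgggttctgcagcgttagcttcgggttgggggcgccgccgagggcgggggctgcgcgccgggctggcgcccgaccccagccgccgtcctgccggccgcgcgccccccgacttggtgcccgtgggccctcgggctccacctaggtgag
Hus1: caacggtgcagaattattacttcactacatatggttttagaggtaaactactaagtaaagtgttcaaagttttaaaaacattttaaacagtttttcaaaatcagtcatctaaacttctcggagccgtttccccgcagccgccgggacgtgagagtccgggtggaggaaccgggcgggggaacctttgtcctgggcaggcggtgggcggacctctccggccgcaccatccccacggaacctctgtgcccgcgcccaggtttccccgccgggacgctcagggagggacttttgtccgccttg

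E2F-type letters stood in 4 of the 8 matched members (Atm, Chek1, Chek2 and Topbp1) and in 10.9% of 26742 genes with such a window. In Topbp1 the run marked in capitals holds 2 overlapping matches, which start 132 and 129 bases before the transcript start. In Atm and Chek1 the match lay after the start, at base 16 and base 44. The ETS letters CCGGAAG, on either strand, stood in 4 of 8 members (Atm, Atr, Topbp1 and Rad1) and in 10% of genes, and the Atm match overlaps its E2F-type match. CCAAT letters stood in Atm, Atrip and Chek2, 3 of 8, against 41% of genes. The STRA8-type letters CNCCTCAG stood in Atrip alone among these 8 windows, against 9.18% of genes, and the ATF4-type letters TGATGNAA in 0 of 8, against 4.44%. Hus1 held no match to any of the motifs searched. Of the tested members with a window, Atm, Chek1 and Topbp1 were called lower and held E2F-type letters, and Atr was called lower and held none. Chek2 held them and was not called, though it was called without control replicate 3. Rad1 and Hus1 held none and were not called. A link between letters and calls was not tested.

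Recovered reads ran from 32555443 to 48409550 per library, and the members other than Atrip had between 297 and 7749 reads in each. Of the germ cell, Sertoli, Leydig, macrophage, endothelial and myoid marker lists 0 genes were at 0 in all libraries. The table holds only genes with at least 10 recovered reads over the 6 libraries, so this was fixed in advance and checks no cell type. Eif5 itself read 9035 ± 515 normalised read counts in cKO and 11234 ± 708 in control testes (SD, n = 3 each), a log2 fold change of -0.31 (limma adjusted p = 0.024) that was not called without cKO replicate 1 (adjusted p = 0.13) or cKO replicate 2 (adjusted p = 0.0875). Calls were made by limma on log2(value + 2), with the threshold at an adjusted p of 0.05 over 17570 genes. By this rule 10.4% of genes were called lower and 9.63% higher in cKO, so 51.9% of all calls were lower. That share was 75.6% with library totals and 99.5% when each library was scaled to the summed Sertoli marker reads. Under that scaling the median of all genes stood at -0.40 on the log2 scale, where the deposited values gave 0.01. Clu alone read 306001 of a Sertoli sum of 575518 normalised read counts in cKO replicate 1, and 157598 of 323239 in control replicate 1. Results of this scaling therefore lean on Clu, which was not called itself (log2 fold change 0.39, limma adjusted p = 0.217).

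The kinase genes Atm, Atr, Prkdc and Chek1 and the ATR activator Topbp1 fell in cKO testes, to between 0.568 and 0.714 of the control level. The clamp genes Rad9a, Rad1 and Hus1 and the effector kinase Chek2 were not called. So 5 of the 9 members tested were lower and 0 higher, with 10.4% of all genes lower. At an unadjusted p under 0.05 limma likewise gave 5 lower and 0 higher, where 16.7% of all genes were lower and 16.7% higher. In turn edgeR called 5 lower and 0 higher (10.6% and 8.96% of all genes), and DESeq2 5 lower and 0 higher (11.5% and 11.0%). Under the Sertoli scaling 7 were lower (26.1% of all genes), and without control replicate 3 there were 6 (10.2%). The 5 genes were called lower under all 15 alternative settings, other scalings included. The cKO libraries all lay below all controls for the same 5 members, an arrangement seen for 18.4% of the genes tested.

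**Figure D1:**
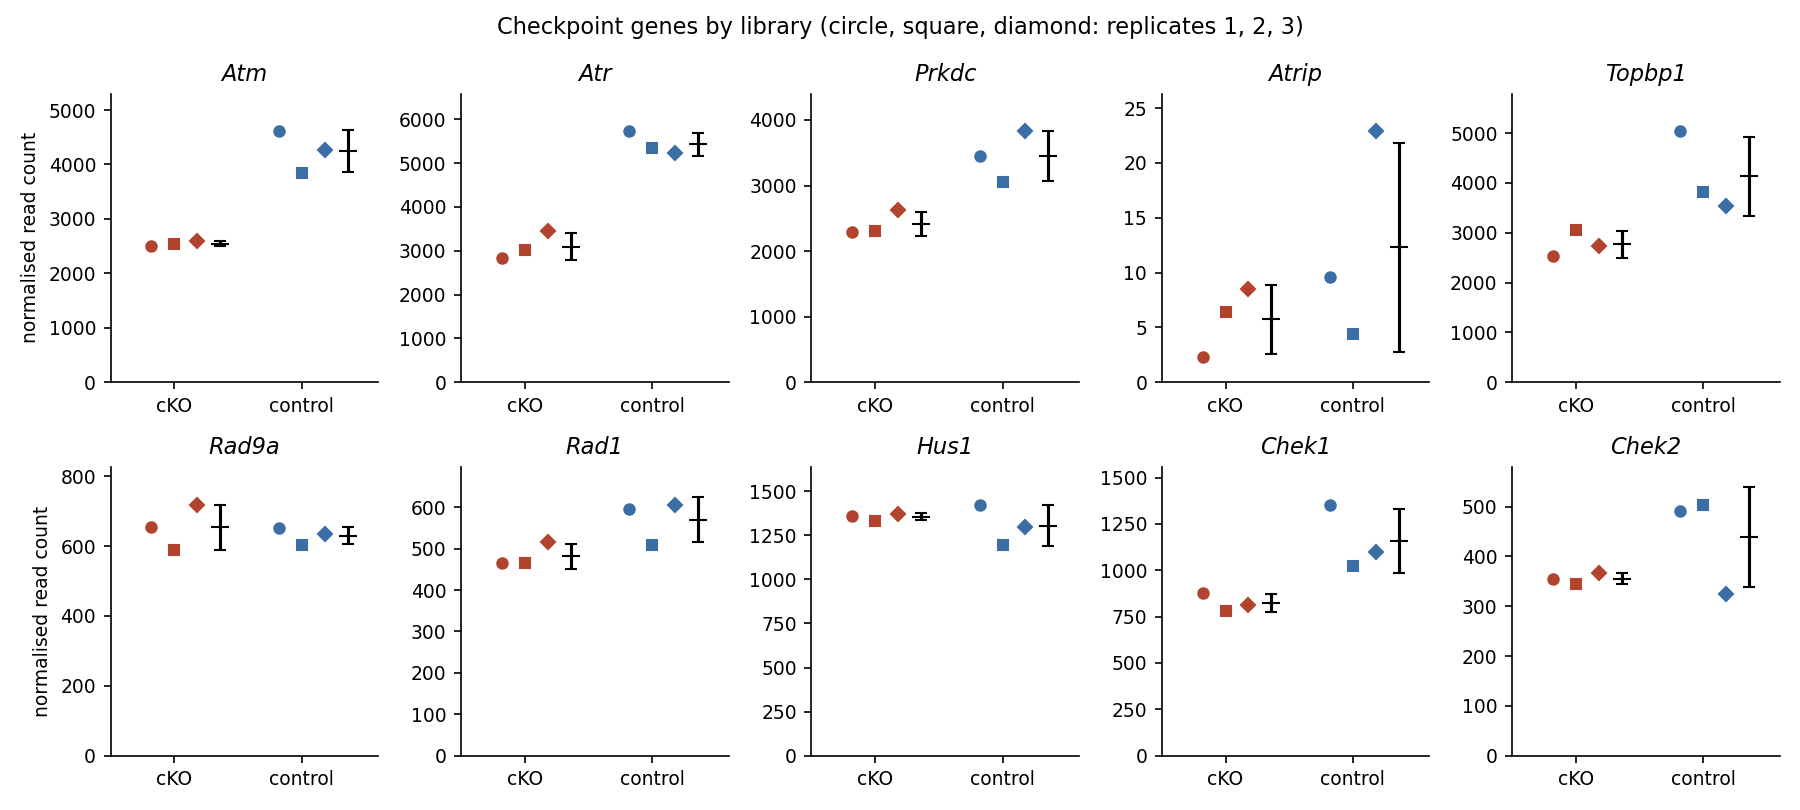
Normalised read counts of the 10 checkpoint genes in each library, with cKO left of control; circles, squares and diamonds are replicates 1, 2 and 3, and bars give the mean and SD (n = 3). Atm, Atr, Prkdc, Topbp1 and Chek1 show 2 separate groups of points, while Rad9a, Rad1, Hus1 and Chek2 overlap and Atrip stays under 25 in every library.

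Atr, which answers stalled forks, had the largest fall of the members. It read 2825, 3018 and 3447 normalised read counts in cKO replicates 1 to 3 and 5731, 5341 and 5235 in control replicates 1 to 3. The highest cKO library was well under the lowest control. The log2 fold change was -0.82 (SE 0.0954, 95% interval -1.01 to -0.62, limma adjusted p = 5.5e-06). It ran from -0.89 to -0.75 when each library was left out in turn. Annotated antisense genes overlap exons of Atr, and since the strand setting of the counting is not given, their reads cannot be told apart from its own. The table lists 2 of them, Gm16794 and 1700065D16Rik, at no more than 47.9 normalised read counts in any library, far below Atr.

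Atm, the kinase of double-strand breaks, read 2504, 2535 and 2599 in cKO and 4612, 3842 and 4269 in control libraries. The 3 cKO values were within 100 counts of each other, a narrower band than the controls formed. Its log2 fold change was -0.73 (SE 0.0933, 95% interval -0.93 to -0.54, limma adjusted p = 1.57e-05). Npat, which starts next to Atm on the opposite strand and encodes a coactivator of histone genes, was lower too, with a log2 fold change of -0.42 (limma adjusted p = 0.00346), and was called in all 6 leave-one-out fits.

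Prkdc, the catalytic subunit of DNA-PK, read 2297, 2308 and 2624 in cKO and 3458, 3059 and 3829 in control libraries. No cKO library reached a control. The log2 fold change was -0.51 (SE 0.101, 95% interval -0.72 to -0.30, limma adjusted p = 0.00126). Its divergent neighbour Mcm4, a subunit of the replicative helicase, had a log2 fold change of -0.60 (limma adjusted p = 0.00103). The divergent neighbours of Chek2 and Rad1, Hscb and Brix1, were not called (log2 fold changes -0.08 and -0.04), and neither were Chek2 and Rad1 themselves. 1300017J02Rik, next to Topbp1, lay lower in all cKO libraries at 16.9 to 21.7, against 32.7 to 45.8 in controls, and did not pass (limma adjusted p = 0.0695).

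Topbp1, the scaffold that activates ATR, read 2526, 3049 and 2725 in cKO and 5040, 3821 and 3534 in control libraries. Control replicate 1 was the highest by far, and the groups stayed apart without it. The log2 fold change was -0.57 (SE 0.116, 95% interval -0.81 to -0.32, limma adjusted p = 0.00182), and -0.41 without control replicate 1 (adjusted p = 0.00611).

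Chek1, the effector kinase below ATR, read 878, 781 and 811 in cKO and 1354, 1024 and 1100 in control libraries. Control replicate 1 was again the highest, and all controls were above all cKO values. On the log2 scale the change was -0.49 (SE 0.117, 95% interval -0.73 to -0.24, limma adjusted p = 0.00618). Chek2, the effector kinase below ATM, read 354, 345 and 367 in cKO and 491, 504 and 324 in control libraries. Control replicate 3 lay below every cKO library, so the groups overlapped. Chek2 was not called (log2 fold change -0.28, 95% interval -0.61 to 0.05, limma adjusted p = 0.235), and without control replicate 3 it was (log2 fold change -0.48, adjusted p = 0.0242). It was also called lower under the Sertoli scaling, at -0.69, or -0.29 relative to the median of all genes.

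**Figure D2:**
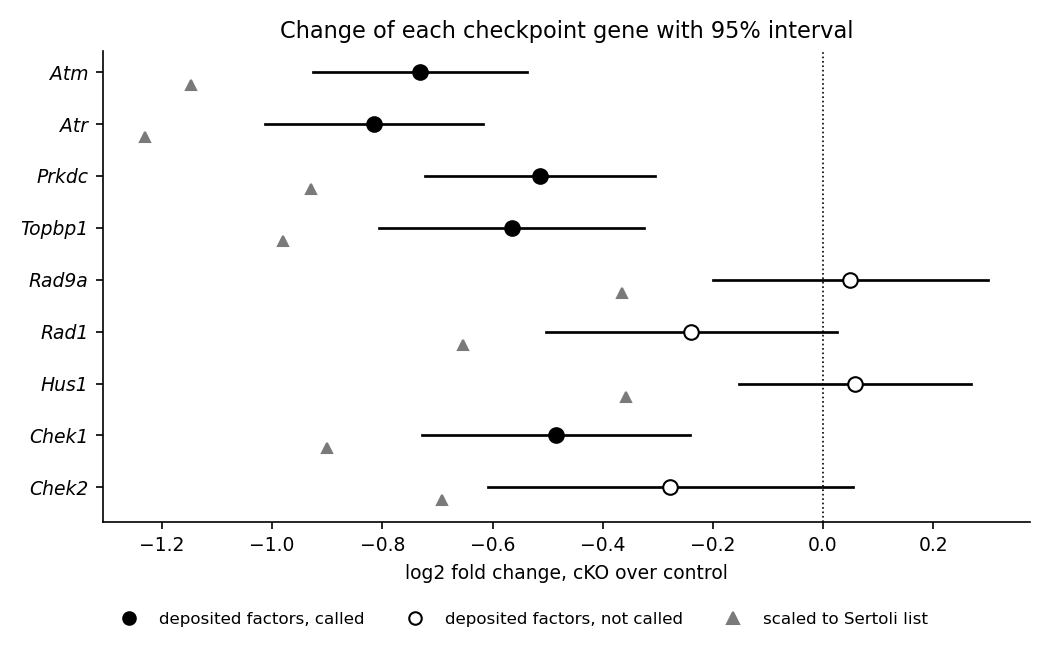
Log2 fold change, cKO over control, of the 9 members tested, with 95% intervals from limma (n = 3 per group); filled circles were called, open circles were not, and triangles give the value after scaling to the Sertoli marker list. The intervals of Atr, Atm, Prkdc, Topbp1 and Chek1 lie below 0, those of Rad9a, Rad1, Hus1 and Chek2 include it, and each triangle lies to the left of its circle, as the median of all genes moves to -0.40.

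The subunits of the ring-shaped clamp that is loaded at damaged sites were not called. Hus1 read 1359, 1332 and 1373 in cKO and 1424, 1192 and 1299 in control libraries, with a log2 fold change of 0.06 (95% interval -0.15 to 0.27, limma adjusted p = 0.739). Rad9a read 655, 589 and 719 in cKO and 652, 604 and 633 in control libraries, with a log2 fold change of 0.05 (95% interval -0.20 to 0.30, limma adjusted p = 0.815). For both genes the cKO values lay among the control values or close to them. The sign of both changes turned with library totals (-0.028 for Hus1 and -0.036 for Rad9a) and under the Sertoli scaling (-0.36 for each), where neither was called. Relative to the median of all genes under that scaling Hus1 stood at 0.05 and Rad9a at 0.04.

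Rad1, the third clamp subunit, read 465, 464 and 516 in cKO and 595, 508 and 606 in control libraries. Only cKO replicate 3 and control replicate 2 crossed. The log2 fold change was -0.24 (95% interval -0.50 to 0.02, limma adjusted p = 0.194), and -0.65 under the Sertoli scaling, where it was called (adjusted p = 0.026). Exons of Rad9a overlap those of Ppp1ca on the opposite strand. Ppp1ca, a phosphatase subunit gene, averaged 14801 ± 793 in cKO and 13983 ± 1293 in control libraries (SD, n = 3 each), far above Rad9a, so Rad9a may include reads of Ppp1ca and its value is uncertain.

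The gap between the apical kinases and the clamp can be read within a library, where the scaling cancels. The mean log2 level of Atm, Atr and Prkdc exceeded that of Rad9a, Rad1 and Hus1 by 1.76, 1.86 and 1.84 in cKO replicates 1 to 3 and by 2.45, 2.47 and 2.47 in control replicates 1 to 3. The gap was 0.64 smaller in cKO on the log2 scale, against SDs of 0.0531 in cKO and 0.0101 in control libraries. These genes were grouped by role with their changes known, so this is a description with no test. The size of the gap also rests on Rad9a, whose value is uncertain.

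Atrip, the partner that brings ATR to single-stranded DNA, was close to the lower limit of detection. It had 2, 8 and 7 recovered reads in cKO replicates 1 to 3 and 13, 4 and 21 in control replicates 1 to 3. These counts are too few to compare the groups, and Atrip was not tested. In GENCODE M21 exons of Atrip share bases with Trex1, an exonuclease gene on the same strand, which read 432, 353 and 498 normalised read counts in cKO and 302, 426 and 362 in control libraries. Reads that fall in both genes can be dropped or given to either, so the low value of Atrip need not be its true level.

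Levels were compared between genes as normalised read counts per kb of the longest coding GENCODE M21 transcript. In control testes Topbp1 was the highest at 791 ± 153 per kb, followed by Atr at 671 ± 32.3 and Atm at 432 ± 39.3 (SD, n = 3). Topbp1 was above Atr in each control library (965 against 707, 732 against 659 and 676 against 646), a difference that was not tested. Chek1 (305 ± 45.5), Rad9a (303 ± 11.6), Hus1 (281 ± 25) and Prkdc (273 ± 30.4) formed a middle group, with overlapping ranges over the control libraries. Chek2 (193 ± 44.2) and Rad1 (140 ± 13.1) came below them. In cKO testes Topbp1 (530 ± 50.5 per kb) and Atr (382 ± 39.3) were still first, and Rad9a (314 ± 31.2) and Hus1 (292 ± 4.44) stood above Atm (259 ± 4.95) and Chek1 (217 ± 13.1). The place of Rad9a is uncertain in both groups, as it may include reads of Ppp1ca. Prkdc read 191 ± 14.7, Chek2 156 ± 4.81 and Rad1 118 ± 7.31 per kb in cKO (SD, n = 3).

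**Figure D3:**
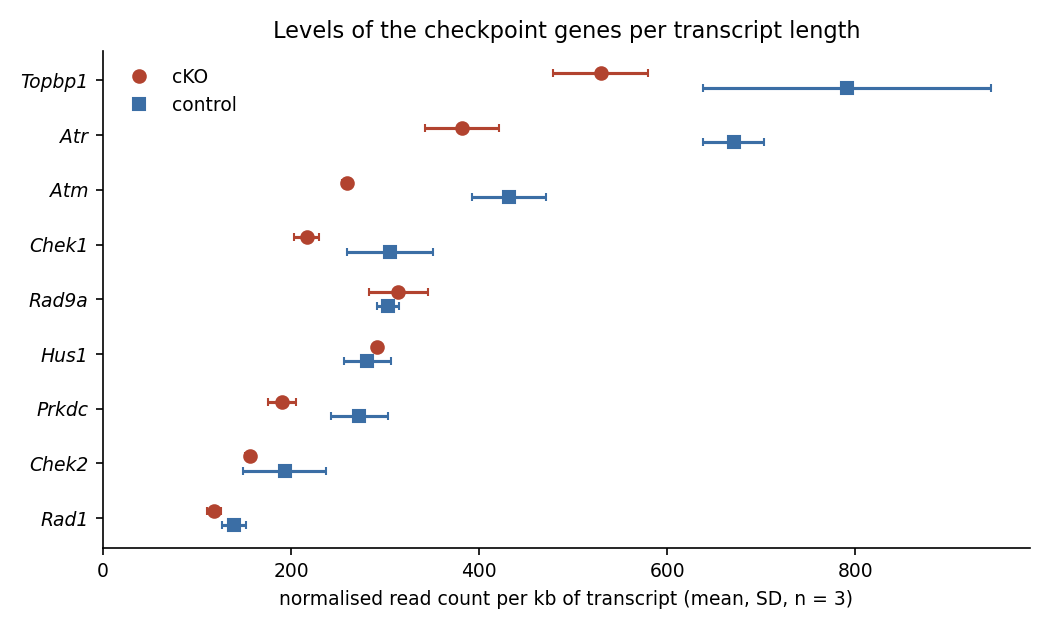
Normalised read count per kb of transcript for the 9 members other than Atrip, mean and SD over 3 libraries, with cKO as circles above control as squares. Atm stands above Rad9a and Hus1 in control testes and below them in cKO testes, where its mean is 259 per kb. Rad9a may include reads of Ppp1ca.

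Within-library ratios of partner genes were compared by an exact 2-sided permutation test over the 6 libraries, which cannot give a p below 0.1 with 3 against 3. The Chek2/Atm log2 ratio was -2.81, -2.87 and -2.82 in cKO and -3.23, -2.93 and -3.71 in control libraries, a difference of 0.45 (exact permutation p = 0.1, adjusted over the 9 ratios 0.225). All cKO values were above all control values, so Atm was lower relative to Chek2 in each cKO library than in any control. Without control replicate 3 the difference was 0.24. The same arrangement and p-values held for Prkdc/Atm (difference 0.22), Rad9a/Rad1 (0.29) and Hus1/Rad1 (0.30). The groups overlapped for Chek1/Atr (0.33) and Topbp1/Atr (0.25), each with an exact permutation p of 0.2, adjusted 0.3. Without cKO replicate 1 the first was 0.22, and without cKO replicate 2 the second was 0.16. Rad9a/Hus1 read -1.05 ± 0.122 in cKO and -1.04 ± 0.0735 in control libraries (SD, n = 3 each; exact permutation p = 0.9), and Chek2/Chek1 had a difference of 0.21 (exact permutation p = 0.4), which was 0.035 without control replicate 3 and 0.40 without control replicate 2. The Atrip/Atr ratio rests on too few reads to be read, and the ratios with Rad9a share its uncertain value.

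**Figure D4:**
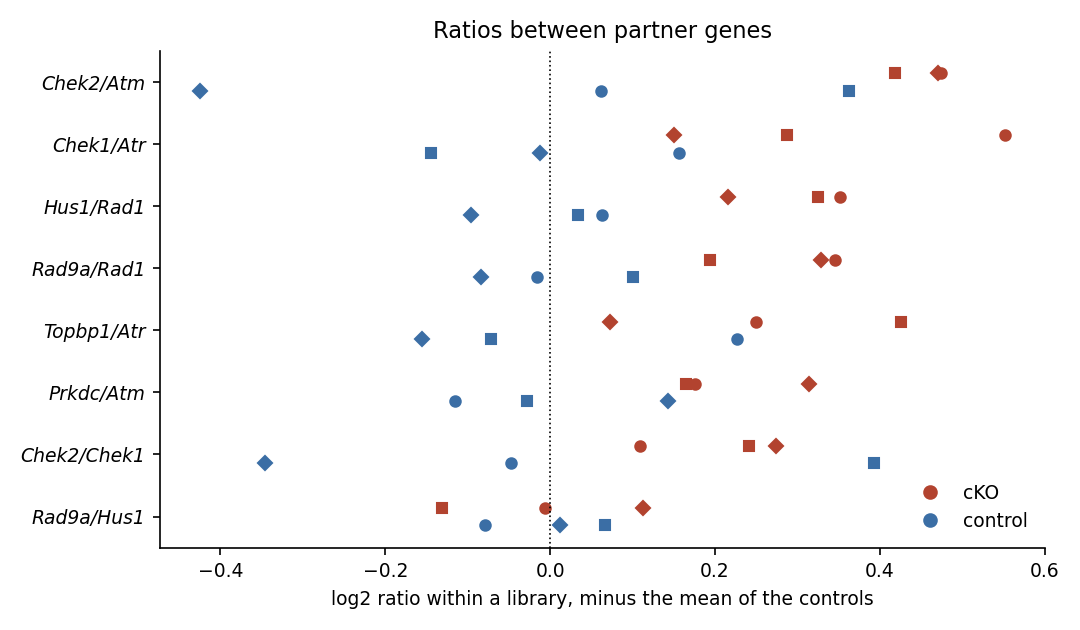
Log2 ratio between partner genes within each library, minus the mean of the 3 controls, for 8 ratios; red points above are cKO and blue points below are control, with circles, squares and diamonds for replicates 1, 2 and 3. The cKO points lie to the right of all control points for Chek2/Atm, Hus1/Rad1, Rad9a/Rad1 and Prkdc/Atm, and the 2 colours mix for the other ratios.

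The other genes of the checkpoint pathway were taken from 6 lists by role, 52 genes in all, of which 18 were lower and 3 higher, against 10.4% and 9.63% of all genes tested. Their median log2 fold change was -0.23, against 0.01 for all genes. With library totals 27 were lower and 1 higher, against 14.2% and 4.59% of all genes, and scaling to the Sertoli list gave 34 and 0, against 26.1% and 0.125%. Without cKO replicate 3 there were 10 lower (7.27% of all genes), and 1 was higher without cKO replicate 1 (5.21%) or cKO replicate 2 (5.72%). Of the 21 genes called, 8 were called in the same direction under all 15 alternatives: Rad50, Rad9b, Clspn, Timeless, Mdc1, Brca1, Mtor and Trp53inp1.

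The mediators, which hand the signal from the apical to the effector kinases, were nearly all lower. Of 7 genes 6 were lower and 1 was higher (median -0.56, log2 scale), against 10.4% and 9.63% of all genes. Clspn encodes claspin, the adaptor through which ATR phosphorylates CHK1. It read 820, 781 and 761 normalised read counts in cKO and 1843, 1501 and 1427 in control libraries, so each cKO library held less than any control by a wide margin. The change was -1.004 on the log2 scale (SE 0.112, limma adjusted p = 3.24e-06). Brca1, a ubiquitin ligase gene of break repair (-0.74), Mdc1, the reader of phosphorylated H2AX (-0.65), and the fork protection genes Timeless (-0.56) and Tipin (-0.31) also fell, as did the break adaptor Trp53bp1 (-0.35), values being log2 fold changes. Tipin lost its call without cKO replicate 1 (adjusted p = 0.0736), cKO replicate 2 (0.0895) or control replicate 2 (0.0706), and Trp53bp1 without cKO replicate 3 (adjusted p = 0.0506). H2afx, the histone variant that ATM, ATR and DNA-PK phosphorylate, went the other way, at 3539, 3838 and 3492 in cKO and 2373, 2880 and 2782 in control libraries (log2 fold change 0.44, limma adjusted p = 0.00333). Under the Sertoli scaling it read 0.02 and was not called.

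Among the sensors that recruit the kinases 4 of 8 were lower and 0 higher (median -0.30, log2 scale). Over all genes 10.4% were lower and 9.63% higher. Rad50 (-0.43) and Mre11a (-0.34), which bring ATM to breaks, Xrcc6, the KU70 subunit that brings in DNA-PK (-0.38), and Rpa2, a subunit of the single-strand binding protein read by ATRIP (-0.42), fell by these log2 fold changes. Xrcc5, the KU80 partner of Xrcc6, read 1028, 1000 and 974 in cKO and 960, 873 and 786 in control libraries and was not called (0.20, limma adjusted p = 0.208; -0.21 under the Sertoli scaling). Of this list 1 gene was lower without cKO replicate 3, a count near the share of 7.27% of all genes. There were 2 lower without control replicate 1 (8.09% of all genes) and 2 without cKO replicate 2 (7.80%). Rad50 was called in each leave-one-out fit, Rpa2 in all but that without cKO replicate 3, and Mre11a only in that without control replicate 3. Xrcc6 lost its call without cKO replicate 2 (adjusted p = 0.0519), cKO replicate 3 (0.0819) or control replicate 1 (0.0906).

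Of the clamp loader genes, clamp paralogues and further activators 5 of 9 were lower and 0 were higher (median -0.30). Over all genes these shares were 10.4% and 9.63%. Rad9b, the testis-enriched paralogue of Rad9a, read 378, 359 and 357 in cKO and 543, 506 and 547 in control libraries (log2 fold change -0.54, SE 0.128, limma adjusted p = 0.00532). Its groups were wide apart, unlike those of Rad9a. Hus1b, the paralogue of Hus1, read 24.8, 17.7 and 36.3 in cKO and 44.4, 56.6 and 57.8 in control libraries (-1.003, limma adjusted p = 0.0465), and edgeR did not call it (adjusted p = 0.067). The loader subunits Rfc2 (-0.43) and Rfc4 (-0.32) and Rhno1, which links the clamp to TOPBP1 (-0.30), fell. Rad17, the subunit that makes the loader specific for this clamp, was not called (-0.25, limma adjusted p = 0.0925), and neither was Etaa1, the second activator of ATR (-0.13, adjusted p = 0.438). In this list 2 genes were lower when replicate 2 or 3 of either group was left out (7.27% to 10.2% of all genes). There were 3 without control replicate 1 (8.09% of all genes), without cKO replicate 1 (7.62%) or with no filter (8.03%). Among the leave-one-out fits Rfc4 was called only without cKO replicate 1, Rhno1 only without control replicate 1 and Hus1b only without cKO replicate 3, and Rfc2 lost its call without cKO replicate 3 (adjusted p = 0.0663).

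**Figure D5:**
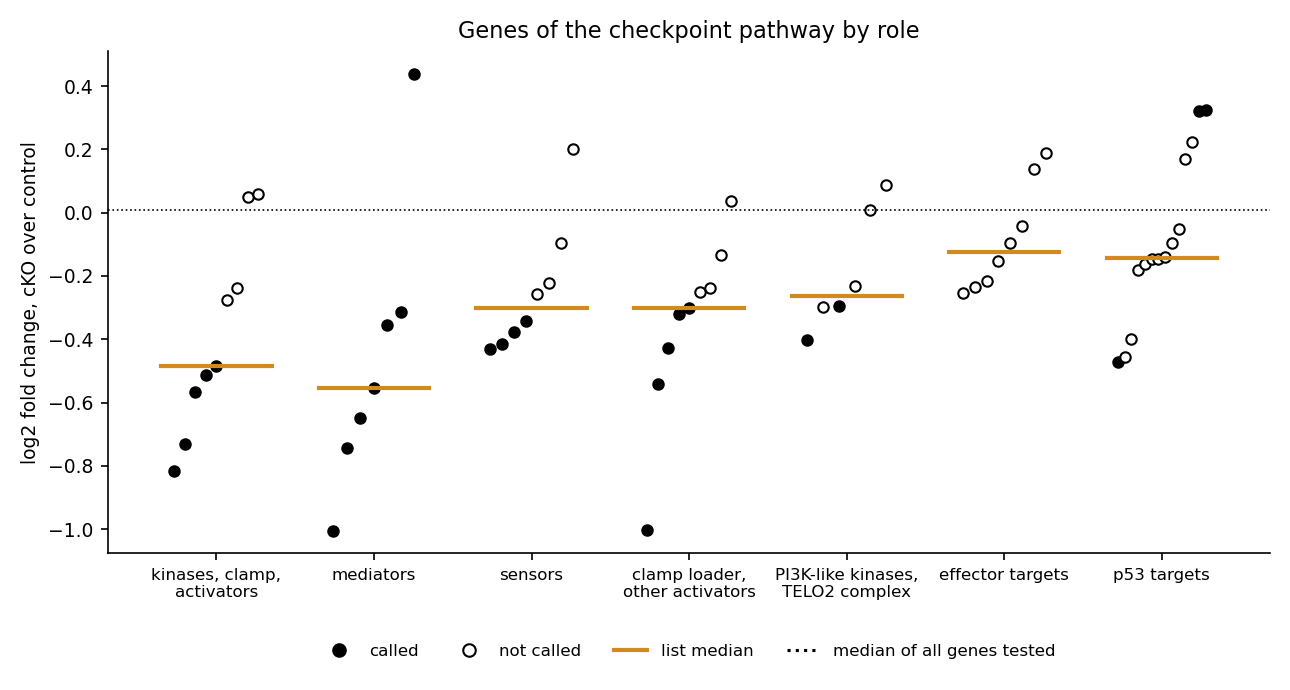
Log2 fold change, cKO over control, of each tested gene of the checkpoint pathway, by role; filled points were called, open points were not, orange bars are list medians and the dotted line is the median of all genes tested (0.01). The members and the mediators have the lowest medians, -0.49 and -0.56, and the effector targets have no filled point.

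The other PI3K-like kinases Mtor (-0.40) and Smg1 (-0.29) fell, 2 of a list of 6, against 10.4% of all genes. Trrap and the TELO2 complex genes, which stabilise newly made kinases of this family, were not called (Telo2 -0.30, Tti1 -0.23, Tti2 0.01). Tti1 was called without control replicate 3 (-0.30, adjusted p = 0.0422), and Telo2 and Tti1 were called with library totals and under the Sertoli scaling. Smg1 was not called once any 1 cKO library, control replicate 1 or control replicate 3 was dropped, nor with replicate number as a block (adjusted p = 0.0552). Of 8 targets of the effector kinases limma called 0, with log2 fold changes from -0.25 for E2f1 to 0.19 for the phosphatase gene Cdc25b. At an unadjusted p under 0.05 there were 3 lower and 0 higher, against 16.7% of all genes each way. edgeR and DESeq2 each called 0, and 3 were lower with library totals, against 14.2% of all genes. The Sertoli scaling gave 4 lower and 0 higher, against 26.1% and 0.125% of all genes. E2f1 was called without control replicate 1 (-0.32, adjusted p = 0.043). Trp53, the gene of the p53 transcription factor, read 2712, 2834 and 2465 in cKO and 2658, 2192 and 2437 in control libraries and was not called (0.14, limma adjusted p = 0.349).

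Among 14 transcriptional targets of p53 there was 1 lower and there were 2 higher (median -0.14, log2 scale). This was near the shares of 10.4% and 9.63% over all genes, so by this rule the list as a whole gives no result. With library totals 2 were lower and 0 higher, against 14.2% and 4.59% of all genes. The Sertoli scaling gave 7 lower and 0 higher, against 26.1% and 0.125%. Trp53inp1, a p53 cofactor, fell (-0.47), and Sesn2 (0.32), which the integrated stress response also raises, and Zmat3 (0.32) rose. Under the Sertoli scaling Sesn2 and Zmat3 read -0.10 and -0.09 and were not called. Sesn2 was not called without cKO replicate 1 or 2 (adjusted p = 0.0858 and 0.0799), and Zmat3 was called in 4 of 15 alternatives, of the leave-one-out fits only in that without control replicate 1. Cdkn1a, the p53 target that arrests the cell cycle, read 270, 220 and 233 in cKO and 258, 231 and 283 in control libraries, with the groups intermingled (-0.10, limma adjusted p = 0.728). Mdm2 (-0.05), Bax (-0.15) and Pmaip1 (-0.14) were not called. Bbc3 was not called either (-0.46, limma adjusted p = 0.0712), but was with replicate number as a block (adjusted p = 0.0391), with library totals (0.0362), under the Sertoli scaling (0.00537) and without cKO replicate 2 (0.0205).

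Most genes of the cell cycle list and of the meiotic germ cell list were lower too. Of 16 genes of S, G2 and M phase 13 were lower and 0 higher (median log2 fold change -0.45, 9 lower without cKO replicate 3). In whole testes these genes do not name a cell type. Cdk1 of this list was higher in each cKO library than in any control and was not called (0.18, limma adjusted p = 0.199). The summed level of the list ran from 31261 to 35070 normalised read counts in cKO and from 42804 to 51684 in control libraries. The largest sum was in control replicate 1. Of the called members Atm, Atr, Chek1 and Topbp1 were also highest there, while Prkdc was highest in control replicate 3. All 15 meiotic prophase genes were lower (median -1.39, sums of 10362 to 11808 in cKO and 25029 to 28441 in control libraries). So were 6 of 7 genes of differentiating spermatogonia (median -1.51, sums of 11319 to 13193 in cKO and 23508 to 23540 in control libraries, 4 lower without cKO replicate 3) and 5 of 6 genes of all germ cell stages (median -0.43, sums of 20879 to 21806 in cKO and 31881 to 38506 in control libraries). Beside these counts, 10.4% of all genes were lower and 9.63% higher, and without cKO replicate 3 7.27% were lower. The part of cell types or of cell division in the fall of the checkpoint genes was not tested.

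Of 12 markers of undifferentiated spermatogonia 5 were higher and 0 lower, against 9.63% and 10.4% of all genes. Their sums of 15018 to 16149 in cKO and 13859 to 15764 in control libraries overlapped. Using library totals split these markers into 3 higher and 3 lower, against 4.59% and 14.2% of all genes. The Sertoli scaling gave 0 higher and 3 lower, against 0.125% and 26.1%. Those 3 lower are near the share of all genes, so they give no result for these markers. When cKO replicate 1 or cKO replicate 3 was left out 3 were higher (5.21% and 5.34% of all genes). Without control replicate 3 there were 3 higher and 3 lower, against 10.0% and 10.2% of all genes. Without cKO replicate 2 there were 4 higher and 1 lower, against 5.72% and 7.80%. Of the somatic markers 7 of 14 Sertoli, 6 of 7 Leydig and 7 of 9 macrophage genes were higher, against 9.63% of all genes. In the Sertoli list 1 gene was lower, against 10.4% of all genes. The Sertoli sums ran from 502980 to 575518 in cKO and from 323239 to 462761 in control libraries. Under the Sertoli scaling 1, 0 and 0 of the Sertoli, Leydig and macrophage genes were higher, against 0.125% of all genes. With library totals (4.59% of all genes) or without cKO replicate 1 or 2 (5.21% and 5.72%) 0 macrophage genes were higher. There was 1 without control replicate 1 or 2 (7.99% and 7.79% of all genes), and there were 4 without cKO replicate 3 (5.34%). The 1 lower Sertoli gene was not called without cKO replicate 1 or control replicate 2. Of 5 endothelial genes 1 was higher (9.63% of all genes), and 0 without cKO replicate 1 (5.21%). Of 5 myoid genes 2 were lower (10.4% of all genes), and 0 without cKO replicate 1 or 2 (7.62% and 7.80%). Without cKO replicate 3 or control replicate 2 or 3 there was 1 (7.27%, 8.83% and 10.2%), and without control replicate 1 there were 3 (8.09%). Their part in the checkpoint results was not tested either.

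Of the 10 members 5 lie on 1 chromosome, with Atm, Atr, Atrip, Chek1 and Topbp1 on chromosome 9. Genes of chromosome 9 as a whole were lower at a rate of 11.5% of 948 tested, against 10.5% of 16738 on all autosomes and X, and their median log2 fold change was -0.02. The neighbours and this chromosome were looked at after the members' values were seen, as were the promoter motifs.

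The genes whose values followed the 3 apical kinases most closely were sought by the root mean square difference of centred log2 values over the 6 libraries. For Atr they were Cntrl (0.0343), Pdss1 (0.0416) and Traf5 (0.0595), for Atm Ska3 (0.0444), Cpsf4l (0.0477) and Zfp39 (0.05), and for Prkdc Apoc1 (0.0513), Acer3 (0.0571) and Dync2h1 (0.0633). As many as 79 genes lay within 0.1 of Atm, 39 within 0.1 of Atr and 49 within 0.1 of Prkdc, so with 6 libraries in 2 groups these likenesses are a description of shared level differences.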

How the data were processed

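RNA of whole testes was sequenced in 3 cKO and 3 control libraries, grouped by sample title. StringTie 1.3.1 and RSEM are named, without a role, in the submitters' processing notes; for the aligner, genome build, annotation and strand, nothing is given in the sources used. The authors deposited 1 table named for raw counts whose values are a normalised signal: in each library 100% of values were whole multiples of 1 step (tolerance 1e-06), that is reads divided by a size factor of 0.825 to 1.35. These are the normalised read counts of the text. Among recovered counts of 1 to 20 between 75.1% and 80.9% were even. Independent reads would not favour even counts so strongly, so recovered reads can overstate the number of independent fragments. This holds for the read numbers given here and for the filter, edgeR and DESeq2, which used them. The cause was not tested. Genes with fewer than 10 recovered reads over the 6 libraries are not in the table.

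A filter on low counts, filterByExpr of edgeR, was applied to recovered reads (minimum count 10), leaving 17570 of 22219. The test was limma 3.58.1 on log2(value + 2), with the trend option of its empirical Bayes step, 2-sided tests and Benjamini-Hochberg adjustment over all genes tested. Fold changes are on this scale and understate the change of low genes. edgeR 4.0.16 (quasi-likelihood) and DESeq2 1.42.0 were run on recovered reads in R 4.3.3 as alternatives, besides pseudocounts of 0.5 and 8, no filter, library totals, TMM, scaling to the Sertoli list, a replicate block and leaving out each library. The fits were tested on simulated data, where DESeq2 gave a larger share of false calls than limma or edgeR. The labels do not tie each library to its own animal, and p-values therefore measure only how these samples vary, which can be technical. No 2 libraries were duplicates (chi-square per degree of freedom 10.2 or more). This value ran from 10.2 to 17.1 between cKO libraries and from 43.2 to 57.5 between controls. Control replicate 3 stood nearer to cKO replicates 1 and 3 (32.3 and 32.1) than to control replicates 1 and 2 (52.9 and 57.5). The members and the gene lists were chosen with earlier results of these data known. Named genes are all members, every called gene of the pathway lists and the 3 nearest profiles of each apical kinase, with other genes of these lists given as background. GENCODE M21, which held 94.2% of the symbols, gave chromosomes, lengths and neighbours.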

Additional observations from a re-analysis of the deposited data

How the results depend on the processing

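The 5 calls of Atr, Atm, Prkdc, Topbp1 and Chek1 and their direction held under all 15 alternatives, with the number of members lower at 5 in 13 of them, 6 without control replicate 3 and 7 under the Sertoli scaling. Over all genes the share called lower ran from 7.27% to 26.1% across the alternatives. Leaving out 1 library gave 5 to 6 members lower and 0 higher, against 7.27% to 10.2% and 5.21% to 10.0% of all genes. Chek2 was called under the Sertoli scaling (-0.69) and ran from -0.48 to -0.16 over the leave-one-out fits. Rad1 was called under the Sertoli scaling (-0.65). The direction of Rad9a turned with library totals (-0.036) and the Sertoli scaling (-0.36) and ran from -0.020 to 0.12 over the leave-one-out fits. That of Hus1 turned to -0.028 and -0.36 under the same scalings and ran from -0.0053 to 0.12. The number of pathway genes lower was 34 under the Sertoli scaling (26.1% of all genes) and 10 to 15 over the leave-one-out fits (7.27% to 10.2%). The number higher was 1 with library totals (4.59% of all genes) and 0 under the Sertoli scaling (0.125%). It was 1 to 3 over the leave-one-out fits (5.21% to 10.0%). The cKO minus control difference of the Atrip/Atr log2 ratio turned to -0.10 with a pseudocount of 0.5 and ran from -0.41 to 0.59 over the leave-one-out fits, and that of Rad9a/Hus1 from -0.069 to 0.053. The cause of these changes was not tested, beyond the shift of all genes by -0.40 under the Sertoli scaling and the fewer samples in the leave-one-out fits. Deviations of same-numbered libraries had correlations of -0.0379, -0.00235 and 0.0551, and those of other pairs ran from -0.0738 to 0.0744. These values show no sign of pairing by number, but with 3 libraries per group they cannot exclude it. The fit with replicate number as a block called 5 members lower and 0 higher, and 17 pathway genes lower and 2 higher. Over all genes that fit called 10.1% lower and 8.74% higher. Atrip, at 2 to 21 reads, had too few reads for a comparison.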
